A study of Mus musculus with 8 samples.

Results

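The genes examined were 10 genes of the endoplasmic reticulum (ER) stress response, picked by name from the unfolded protein response (*Hspa5*, *Hsp90b1*, *Dnajb9*, *Xbp1*, *Atf4*, *Ddit3*, *Atf6*, *Herpud1*, *Sdf2l1* and *Pdia6*), out of 56691 genes in the count table. The list was picked with earlier results of these data known, its rule uses no measured value, and all 10 were among the 22423 genes with enough counts to be tested. Bulk RNA sequencing was performed on the cerebellum of 4 *Atm*-WT mice (ATM +/+, labelled 2M, 7M, 13M and 32M) and 4 *Atm*-KO mice (ATM -/-, labelled 1M, 7F, 11M and 12M), all aged 6 months, with a library from each mouse. The knockout is germline, so every cell type of the tissue carries it, and the label of *Atm*-KO mouse 7F alone ends in F rather than M. The comparison asks how loss of ATM, the kinase missing in Ataxia-Telangiectasia, is reflected in cerebellar RNA levels. No treatment is given in the labels for either genotype.

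The ER is where secreted and membrane proteins are folded, and unfolded proteins there are sensed by IRE1, PERK and ATF6. IRE1 splices the *Xbp1* RNA into the form that encodes an active transcription factor, PERK phosphorylates eIF2α and so favours translation of ATF4, and ATF6 is cut in the Golgi to release its transcription factor domain. XBP1 and ATF6 raise chaperones and degradation factors of the ER, whereas ATF4 raises genes of amino acid supply and the factor CHOP, encoded by *Ddit3*. Much of this control lies in splicing, cleavage and translation, which counts per gene do not measure.

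By edgeR's quasi-likelihood test 0 of the 10 genes passed an adjusted p of 0.05 between genotypes, where 0.0178% of all genes tested did. DESeq2 called 2, *Dnajb9* and *Herpud1*, where it called 7.49% of all genes. In these 2 genes the *Atm*-KO values all lay under the *Atm*-WT values, beside 11.6% of all genes without overlap and 5.12% without overlap and lower. *Dnajb9* was lower in *Atm*-KO cerebella by 0.27 and *Herpud1* by 0.26 on the log2 scale. The ER chaperone genes *Hspa5*, *Hsp90b1*, *Sdf2l1* and *Pdia6*, together with *Xbp1*, differed between genotypes by less than the SD of the *Atm*-WT mice, and their levels were lowest in the same pair of mice, *Atm*-WT mouse 13M and *Atm*-KO mouse 1M. *Atf4* and *Ddit3* differed little between genotypes.

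Promoters were searched for the ER stress response element (ERSE), a DNA sequence through which ATF6 and XBP1 are known to act on genes of this response. Promoters of 9 of the 10 genes were found in the RefSeq table (build GRCm38.p6), which covers 250 bases before to 50 bases after each gene's start, and *Atf6* had no entry. ERSE was searched on both strands as CCAAT, then 9 bases of any kind, then CCACG. It was present in 39 of 32851 promoters (0.119%), among them those of *Hspa5*, *Hsp90b1* (in 2 places) and *Pdia6*. The related element ERSE-II, searched on both strands as ATTGG, then 1 base of any kind, then CCACG, was in 12 promoters (0.0365%), with that of *Herpud1* among them. The matches are shown 5′ to 3′ on the strand of the gene, because they are what sets the promoters of these 4 genes apart from the other 5 in this search, with the element in capitals and flanking bases in lower case. The second element of *Hsp90b1* lies on the other strand, so its capitals are the reverse complement.
*Hspa5*, ERSE: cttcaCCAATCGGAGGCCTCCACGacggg
*Hsp90b1*, ERSE, distal: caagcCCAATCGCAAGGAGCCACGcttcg
*Hsp90b1*, ERSE, proximal, other strand: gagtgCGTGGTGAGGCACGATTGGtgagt
*Pdia6*, ERSE: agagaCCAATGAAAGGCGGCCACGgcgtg
*Herpud1*, ERSE-II: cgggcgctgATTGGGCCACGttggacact

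Each printed stretch matched GRCm39 at a single place. Positions of the elements are counted from the RefSeq start of the gene, negative before it. The *Hspa5* stretch is at chr2:34662032-34662060 (plus strand), with the element at −65 to −47, and lies wholly past the GENCODE start of the gene at 34661982. In *Hsp90b1* the distal stretch is at chr10:86541497-86541525 and the proximal at chr10:86541392-86541420 (minus strand), with elements at −212 to −194 and −107 to −89. The GENCODE start of *Hsp90b1* is at 86541446, so the proximal stretch lies wholly inside the GENCODE gene and the distal before it. The *Pdia6* stretch is at chr12:17316487-17316515 (plus strand), with its element at −98 to −80. The *Herpud1* stretch is at chr8:95112996-95113024 (plus strand), with its element at −52 to −42, and its last bases lie past the GENCODE start of the gene at 95113022.

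A core of the XBP1 site (UPRE, TGACGTGG, in 222 or 0.676% of all promoters, either strand) had no match in the 9 promoters. A core of the ATF4 site (CARE, TGATGNAA, in 1304 or 3.97% of all promoters, either strand) matched that of *Herpud1* alone, on the other strand at chr8:95112935-95112962, at −112 to −105 from the RefSeq start. That match is shown because *Herpud1*, whose ERSE-II is printed above, then holds letters of both the ATF6/XBP1 and the ATF4 arm. The letters searched for ERSE, ERSE-II, UPRE and CARE were not in the 300-base windows of *Dnajb9*, *Xbp1*, *Atf4*, *Ddit3* and *Sdf2l1*, and a match describes letters only, not a bound site.
*Herpud1*, CARE core, other strand: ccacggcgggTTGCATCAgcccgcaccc

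The targeted gene was checked first. *Atm* was measured at 67.6, 80.0, 79.4 and 59.0 CPM (counts scaled to a common library size after TMM normalization) in *Atm*-WT mice 2M, 7M, 13M and 32M. In *Atm*-KO mice 1M, 7F, 11M and 12M it was at 51.1, 44.3, 41.1 and 44.9 CPM. The genotypes did not overlap, in the direction the labels state, and counts over the whole gene do not show which part of its transcript remained. The libraries held between 65967130 and 88030300 counts, and each of the 10 genes had at least 2902 counts in every library except *Ddit3* and *Sdf2l1*, whose lowest counts were 463 and 424. Markers of granule and Purkinje cells were present in all 8 mice, with sums of 5500 to 7760 and 9580 to 11900 CPM. Summed RNAs that stay in the nucleus, such as *Malat1* and *Neat1*, ran from 5140 to 10000 CPM in *Atm*-WT and from 10600 to 16300 CPM in *Atm*-KO mice without overlap, with *Atm*-WT mouse 32M lowest. *Atm*-KO mouse 12M had the fewest counts in total and the lowest sum of oligodendrocyte markers, 1990 CPM against 3150 to 4310 CPM in the others. The part of these differences in the results below was not tested. In bulk tissue, fewer cells of a type and less RNA per cell cannot be told apart.

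*Dnajb9* encodes ERdj4, an ER co-chaperone that works with BiP and restrains IRE1. It was at 54.6, 56.5, 55.6 and 55.4 CPM in *Atm*-WT mice 2M, 7M, 13M and 32M and at 46.8, 47.1, 47.2 and 43.0 CPM in *Atm*-KO mice 1M, 7F, 11M and 12M. The *Atm*-WT mice lay close together, with a coefficient of variation of 1.44% that was the smallest of the 10 genes in that genotype, and all *Atm*-KO mice were below them. The means were 55.5 ± 0.799 and 46.0 ± 2.05 CPM (SD, n = 4), a log2 fold change of −0.27 (standard error 0.0591, 95% interval −0.40 to −0.14). By the quasi-likelihood test of edgeR, adjusted over all genes tested by the Benjamini-Hochberg method, the unadjusted p was 0.000712 and the adjusted p 0.0931. *Dnajb9* lies on chromosome 12 of GRCm39 from 44252341 to 44257171 (minus strand), and 1.5% of its exon bases are shared with another gene, *Mir5627* on the opposite strand.

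*Herpud1* encodes an ER membrane protein that helps pass unfolded proteins to degradation. It was at 66.9, 75.0, 69.6 and 72.2 CPM in *Atm*-WT mice 2M, 7M, 13M and 32M and at 57.4, 60.2, 63.5 and 55.9 CPM in *Atm*-KO mice 1M, 7F, 11M and 12M. The genotypes were again apart, with 63.5 CPM the highest *Atm*-KO and 66.9 CPM the lowest *Atm*-WT value. The means were 70.9 ± 3.47 and 59.2 ± 3.34 CPM (SD, n = 4), with a log2 fold change of −0.26 (standard error 0.0647, 95% interval −0.40 to −0.12). The unadjusted p was 0.00185 and the adjusted p 0.0992 by edgeR's quasi-likelihood test. *Herpud1* lies on chromosome 8 from 95113022 to 95123141 (plus strand), and no other gene shares over 3.7% of its exon bases.

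The call for these 2 genes depended on the tool. In DESeq2 the adjusted p was 0.00643 for *Dnajb9* and 0.0233 for *Herpud1*, and in limma voom it was 0.103 and 0.108. Over all alternatives the adjusted p ranged from 0.00643 to 0.326 for *Dnajb9* and from 0.0233 to 0.388 for *Herpud1*, while the log2 fold change stayed between −0.28 and −0.22 and between −0.29 and −0.20. With the mice 13M (*Atm*-WT) and 1M (*Atm*-KO) both left out, the log2 fold changes were −0.28 and −0.25.

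The markers of 9 cell classes were set beside *Dnajb9* and *Herpud1*, and 0 of them passed an adjusted p of 0.05 by edgeR. At an unadjusted p under 0.05, 4 of 6 microglial, 3 of 7 astrocyte and Bergmann glia, 3 of 7 endothelial, 3 of 8 oligodendrocyte, 3 of 8 choroid plexus, 1 of 9 Purkinje cell, 1 of 6 meningeal fibroblast and 1 of 5 deep nuclei and brainstem neuron markers were lower in *Atm*-KO mice, beside 8.48% of all genes. The sole marker higher at that p was 1 of 9 granule cell markers, beside 11.7% of all genes. DESeq2 called as lower 3 microglial, 2 astrocyte and Bergmann glia, 2 endothelial, 1 meningeal fibroblast and 1 deep nuclei marker, beside 2.44% of all genes. It called 1 granule cell marker as higher, and 7.49% of all genes in either direction.

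The summed markers overlapped between genotypes in 8 of the 9 classes. Microglial markers, for example, summed to 130 to 171 CPM and 101 to 133 CPM in *Atm*-WT and *Atm*-KO mice, and endothelial markers to 235 to 262 and 194 to 250 CPM. The sums of deep nuclei and brainstem neuron markers did not overlap, at 566 to 622 and 394 to 528 CPM. That separation came from *Pvalb*, which Purkinje cells and molecular layer interneurons also express (337 to 366 and 260 to 315 CPM), and the other 4 markers summed to 217 to 269 and 108 to 268 CPM, which overlapped. *Atm*-KO mouse 12M, the lowest in that sum, had *Slc17a6*, the vesicular glutamate transporter gene of deep nuclei and brainstem neurons, at 4.32 CPM, against 73.6 to 116 CPM in the other 7 mice. Without that mouse the log2 fold changes of *Dnajb9* and *Herpud1* were −0.24 and −0.23. The part of the cell classes in the levels of these 2 genes was not tested.

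**Figure D1:**
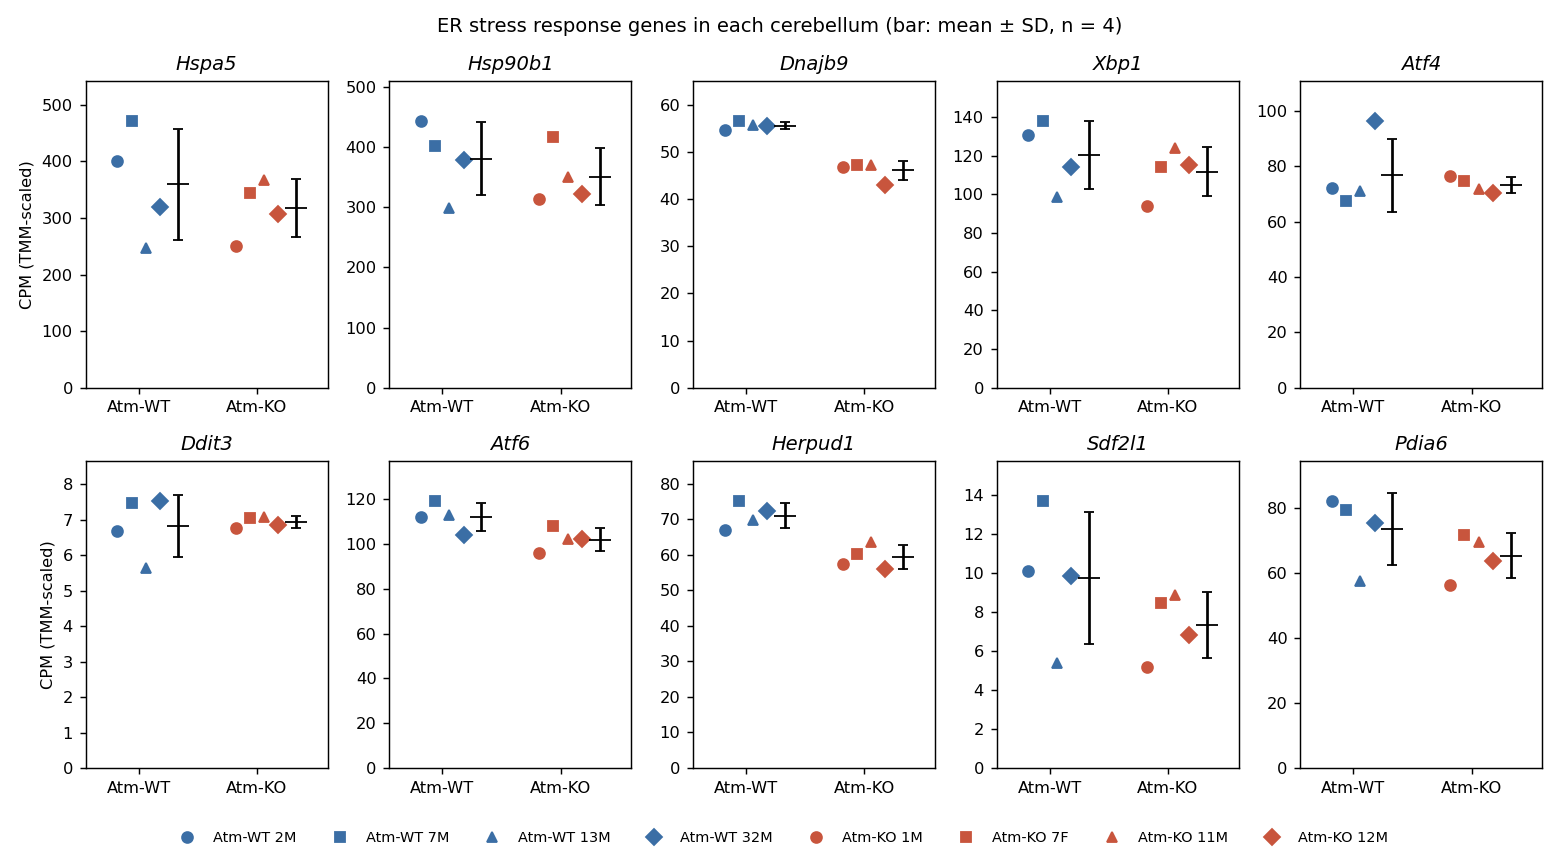
CPM (TMM-scaled, vertical axes from 0) of the 10 ER stress response genes in each mouse, blue for *Atm*-WT and red for *Atm*-KO, with a symbol for each mouse and a black bar for the mean ± SD (n = 4). *Dnajb9* and *Herpud1* are the 2 genes whose genotypes do not overlap, and *Hspa5*, *Sdf2l1* and *Pdia6* show a low triangle (*Atm*-WT mouse 13M) and a low red circle (*Atm*-KO mouse 1M).

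*Hspa5* encodes BiP, the main Hsp70 chaperone of the ER, which holds the stress sensors inactive until unfolded protein draws it away. It was at 400, 471, 246 and 320 CPM in *Atm*-WT mice 2M, 7M, 13M and 32M and at 250, 344, 367 and 306 CPM in *Atm*-KO mice 1M, 7F, 11M and 12M. The lowest and the highest of all 8 values were both *Atm*-WT, 1.92-fold apart, and the *Atm*-KO values lay within the *Atm*-WT range. The means of 359 ± 97.6 and 317 ± 50.9 CPM (SD, n = 4) gave a log2 fold change of −0.18 (standard error 0.177, 95% interval −0.57 to 0.21, adjusted p = 0.597 by edgeR's quasi-likelihood test). The estimate was −0.31 without *Atm*-WT mouse 13M, −0.084 without *Atm*-KO mouse 1M and −0.026 without *Atm*-WT mouse 7M.

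*Hsp90b1* encodes GRP94, the Hsp90 chaperone of the ER. Its values were 443, 402, 299 and 378 CPM in the *Atm*-WT mice and 314, 417, 350 and 322 CPM in the *Atm*-KO mice, in the same order of mice. The genotypes overlapped, and *Atm*-WT mouse 13M and *Atm*-KO mouse 1M were again the lowest. The log2 fold change was −0.12 (standard error 0.122, 95% interval −0.38 to 0.15, edgeR's adjusted p = 0.620). Leaving out *Atm*-WT mouse 13M gave −0.20, *Atm*-KO mouse 7F −0.19, *Atm*-KO mouse 1M −0.068 and *Atm*-WT mouse 2M −0.038.

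*Pdia6* encodes a protein disulfide isomerase of the ER that also acts on IRE1 and PERK. Its values were 82.2, 79.5, 57.5 and 75.4 CPM in the *Atm*-WT mice and 56.3, 71.8, 69.5 and 63.9 CPM in the *Atm*-KO mice. Without *Atm*-WT mouse 13M, all *Atm*-KO mice were below the remaining *Atm*-WT mice. The log2 fold change was −0.17 (standard error 0.112, edgeR's adjusted p = 0.412), −0.26 without *Atm*-WT mouse 13M and −0.11 without *Atm*-KO mouse 1M.

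*Sdf2l1* encodes an ER protein that joins BiP and its co-chaperones in a folding complex, and it had the widest spread of the 10 genes. It was at 10.1, 13.7, 5.38 and 9.84 CPM in the *Atm*-WT mice and at 5.19, 8.47, 8.91 and 6.81 CPM in the *Atm*-KO mice. The highest mouse was 2.64-fold above the lowest, and *Atm*-WT mouse 13M lay among the *Atm*-KO values while the other *Atm*-WT mice lay above all of them. Its log2 fold change of −0.41 was the largest of the 10 in size, with a standard error of 0.252 (95% interval −0.96 to 0.14, edgeR's adjusted p = 0.380). It was −0.59 without *Atm*-WT mouse 13M, −0.28 without *Atm*-KO mouse 1M, −0.48 without both, and −0.21 without *Atm*-WT mouse 7M.

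*Xbp1*, the transcription factor gene whose RNA IRE1 splices, was at 131, 138, 98.6 and 114 CPM in the *Atm*-WT mice and at 94.3, 114, 124 and 115 CPM in the *Atm*-KO mice. The order of mice was like that of the chaperones, with the same pair lowest and *Atm*-WT mice 7M and 2M highest, and the genotypes overlapped. The log2 fold change was −0.11 (standard error 0.110, edgeR's adjusted p = 0.611), and the count does not separate spliced from unspliced *Xbp1*. It was −0.18 without *Atm*-WT mouse 13M, −0.067 without *Atm*-WT mouse 2M, −0.039 without *Atm*-WT mouse 7M and −0.036 without *Atm*-KO mouse 1M. The gene shares 22.0% of its exon bases with *Ccdc117* on the opposite strand, which was at 44.9 ± 9.85 CPM in *Atm*-WT against 33.7 ± 2.43 CPM in *Atm*-KO mice (SD, n = 4; log2 fold change −0.41, edgeR's adjusted p = 0.128). Whether the counting used strand is not given in the sources used here, so reads of the shared stretch cannot be assigned to either gene with certainty.

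*Atf6*, the gene of the membrane-bound sensor and transcription factor, was at 112, 119, 113 and 104 CPM in *Atm*-WT mice 2M, 7M, 13M and 32M and at 95.8, 108, 102 and 102 CPM in *Atm*-KO mice 1M, 7F, 11M and 12M. The ranges overlapped only through *Atm*-WT mouse 32M and *Atm*-KO mouse 7F. The spread was the narrowest of the 10 genes over all 8 mice, 1.24-fold from lowest to highest, and the log2 fold change was −0.13 (standard error 0.0625, unadjusted p = 0.0547, edgeR's adjusted p = 0.256).

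*Atf4*, the transcription factor gene of the PERK arm, was at 72.2, 67.4, 71.0 and 96.3 CPM in the *Atm*-WT mice and at 76.4, 74.6, 71.6 and 70.2 CPM in the *Atm*-KO mice. A single value, that of *Atm*-WT mouse 32M, stood above 7 mice that lay between 67.4 and 76.4 CPM. The log2 fold change was −0.07 with all mice (standard error 0.102, edgeR's adjusted p = 0.744) and 0.06 without *Atm*-WT mouse 32M, so no direction can be given.

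*Ddit3*, which encodes CHOP, a factor linked to cell death under lasting stress, was at 6.68, 7.47, 5.63 and 7.52 CPM in the *Atm*-WT mice and at 6.76, 7.06, 7.08 and 6.85 CPM in the *Atm*-KO mice. All *Atm*-KO values lay inside the *Atm*-WT range. The log2 fold change was 0.02 (standard error 0.125, 95% interval −0.25 to 0.30, edgeR's adjusted p = 0.936), and it was −0.04 without *Atm*-WT mouse 13M. *Ddit3* is the least certain of the counts, since 64.1% of its exon bases are shared with *Mars1* and 17.0% with *Gm4189*, both on the opposite strand, and *Mars1* was at 69.5 ± 5.76 CPM in *Atm*-WT mice (SD, n = 4). A further *Ddit3* entry of the annotation, with 105 exon bases that all lie in the first, was listed at 0 in every library. In *Hspa5*, 44.2% of exon bases are shared with *Rabepk* on the opposite strand, which was at 13.1 ± 1.36 CPM in *Atm*-WT mice (SD, n = 4).

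By the same edgeR test, 0 of the 10 genes passed an adjusted p of 0.05, where 4 of the 22423 genes tested did (0.0178%). At an unadjusted p under 0.05 there were 2, *Dnajb9* and *Herpud1*, both lower in *Atm*-KO mice, beside 20.2% of all genes in either direction, 8.48% lower and 11.7% higher. DESeq2 called the same 2 genes, where it called 7.49% of all genes and 2.44% as lower, and limma voom called 0 of the 10, where it called 0.0134% of all genes. The genotypes did not overlap for 2 of the 10, beside 11.6% of all genes in either direction and 5.12% lower in *Atm*-KO mice. The share of the 10 genes with an unadjusted p under 0.05 in either direction was therefore near that of all genes. The share that was lower was above that of all genes, though it rests on 2 genes.

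The estimate was below 0 for 9 of the 10 genes, beside 53.1% of all genes and 65.0% of the 10510 genes with a mean between 6.88 and 366 CPM, the range of these 10. The median log2 fold change of the 10 was −0.15, beside −0.02 for all genes, −0.06 for protein-coding genes and −0.06 for genes in that range of CPM. Left-out mice moved this median from −0.23 (without *Atm*-WT mouse 13M) to −0.10 (without *Atm*-KO mouse 1M), and it was −0.19 without both. The intervals of *Hspa5* and *Sdf2l1* reach from −0.57 to 0.21 and from −0.96 to 0.14, so that for these genes 4 mice per genotype leave room for changes in either direction.

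**Figure D2:**
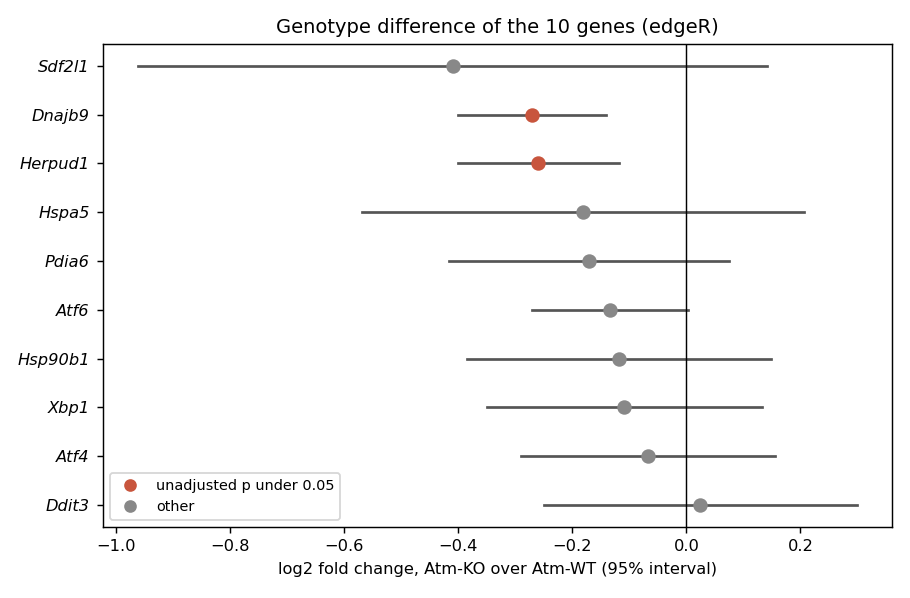
Log2 fold change of *Atm*-KO over *Atm*-WT (horizontal axis) for the 10 genes, with the 95% interval of edgeR's quasi-likelihood fit as a line and red points for an unadjusted p under 0.05. The intervals of *Dnajb9* and *Herpud1* lie below 0, and those of the other 8 genes include 0.

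Levels of different genes were compared per kilobase of exon (RPKM) in *Atm*-WT mice. The length used was that of all annotated exons of a gene merged, so the order depends on the annotation. *Hspa5* (64.7 ± 17.6) and *Hsp90b1* (62.2 ± 9.90) were highest and overlapped each other (SD, n = 4). *Atf4* followed at 32.3 ± 5.55, then *Herpud1* at 18.3 ± 0.896 and *Xbp1* at 17.4 ± 2.57, which overlapped each other. *Dnajb9* was at 13.3 ± 0.192, and *Pdia6* (11.5 ± 1.74) overlapped *Atf6* (11.4 ± 0.607), which overlapped *Sdf2l1* (8.77 ± 3.07). *Ddit3* was lowest at 1.22 ± 0.159, below the other 9 genes in every *Atm*-WT mouse. Its merged length was 5.58 kilobases, much of it shared with *Mars1*, against 1.11 kilobases for *Sdf2l1*. In CPM these 2 genes overlapped in *Atm*-WT mice, at 5.63 to 7.52 and 5.38 to 13.7 CPM. The order in *Atm*-KO mice differed from this only in the exchange of overlapping neighbours, namely *Hspa5* with *Hsp90b1*, *Herpud1* with *Xbp1*, and *Pdia6* with *Atf6*.

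The pattern across mice was described after its values were seen, and is given with no test. *Atm*-WT mouse 13M and *Atm*-KO mouse 1M were the 2 lowest of the 8 mice in 5 of the 10 genes (*Hspa5*, *Hsp90b1*, *Xbp1*, *Sdf2l1* and *Pdia6*), beside 2.73% of all genes tested and 2.54% of genes in the same range of CPM. *Atm*-WT mouse 7M was the highest in 6 of the 10, beside 11.4% of all genes and 14.7% of genes in that range of CPM. Relative to the *Atm*-WT mean, the median of the 10 genes was −0.27 in *Atm*-WT mouse 13M and −0.28 in *Atm*-KO mouse 1M on the log2 scale, and between −0.19 and 0.11 in the other mice.

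Among 20 other genes of ER folding, the same pair was lowest in 6 (30.0%). These were *Calr* (calreticulin), *Pdia4*, *Hyou1*, *Manf*, *Creld2* and *Dnajb11*, named for this order after their values were seen. *Creld2*, an ER stress-inducible gene, was at 5.41 CPM in *Atm*-WT mouse 13M and 7.56 CPM in *Atm*-KO mouse 1M, and between 8.47 and 11.3 CPM in the other mice. *Manf*, which encodes a secreted ER stress protein, was at 29.6 and 32.5 CPM in that pair and between 39.8 and 53.6 CPM in the others. In the ATF4 arm the pair was lowest in 0 of 29 target genes, and elsewhere in 1 of 17 degradation genes (*Derl3*) and 1 of 14 sensor genes (*Atf6b*).

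Genes with an ERSE in their promoter, as printed above for *Hspa5*, *Hsp90b1* and *Pdia6*, were looked up across the table. There were 37 such genes, 10 of them on the lists used here, and 24 were tested. In 7 of the 24 (29.2%) the same pair of mice was lowest, namely in *Hspa5*, *Hsp90b1*, *Pdia6*, *Calr*, *Calr4*, *Creld2* and *Derl3*. All of these but *Calr4* were already counted above, and among the 14 tested genes that are on none of the lists the pair was lowest in 1. The median log2 fold change between genotypes over the 24 was −0.04, beside −0.02 for all genes. Of the 24 estimates 13 were below 0, beside 53.1% of all genes.

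Sums of other lists are given for the same mice. Choroid plexus markers summed to 437 CPM in *Atm*-KO mouse 1M and 799 CPM in *Atm*-WT mouse 13M, the lowest of each genotype, and to between 791 and 1590 CPM in the other mice. All 8 of these markers had an estimate below 0 in *Atm*-KO mice, beside 53.1% of all genes. At an unadjusted p under 0.05 by edgeR 3 of them were lower, beside 8.48% of all genes. Cytosolic heat shock genes summed to 3470 CPM in *Atm*-WT mouse 13M and 2960 CPM in *Atm*-KO mouse 1M, again the lowest of each genotype, with *Atm*-KO mice 12M and 11M between them at 3040 and 3290 CPM and *Atm*-WT mouse 7M highest at 5090 CPM. In that list 8 of 12 genes had an unadjusted p under 0.05, all lower in *Atm*-KO mice, beside 8.48% of all genes lower and 20.2% in either direction, with a median log2 fold change of −0.36. Immediate early genes, which respond to activity and handling, summed to 172 to 251 CPM in *Atm*-WT and 110 to 167 CPM in *Atm*-KO mice without overlap, and *Atm*-KO mouse 1M, at 164 CPM, was not the lowest of its genotype. The part of these lists in the levels of the ER genes was not tested.

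**Figure D3:**
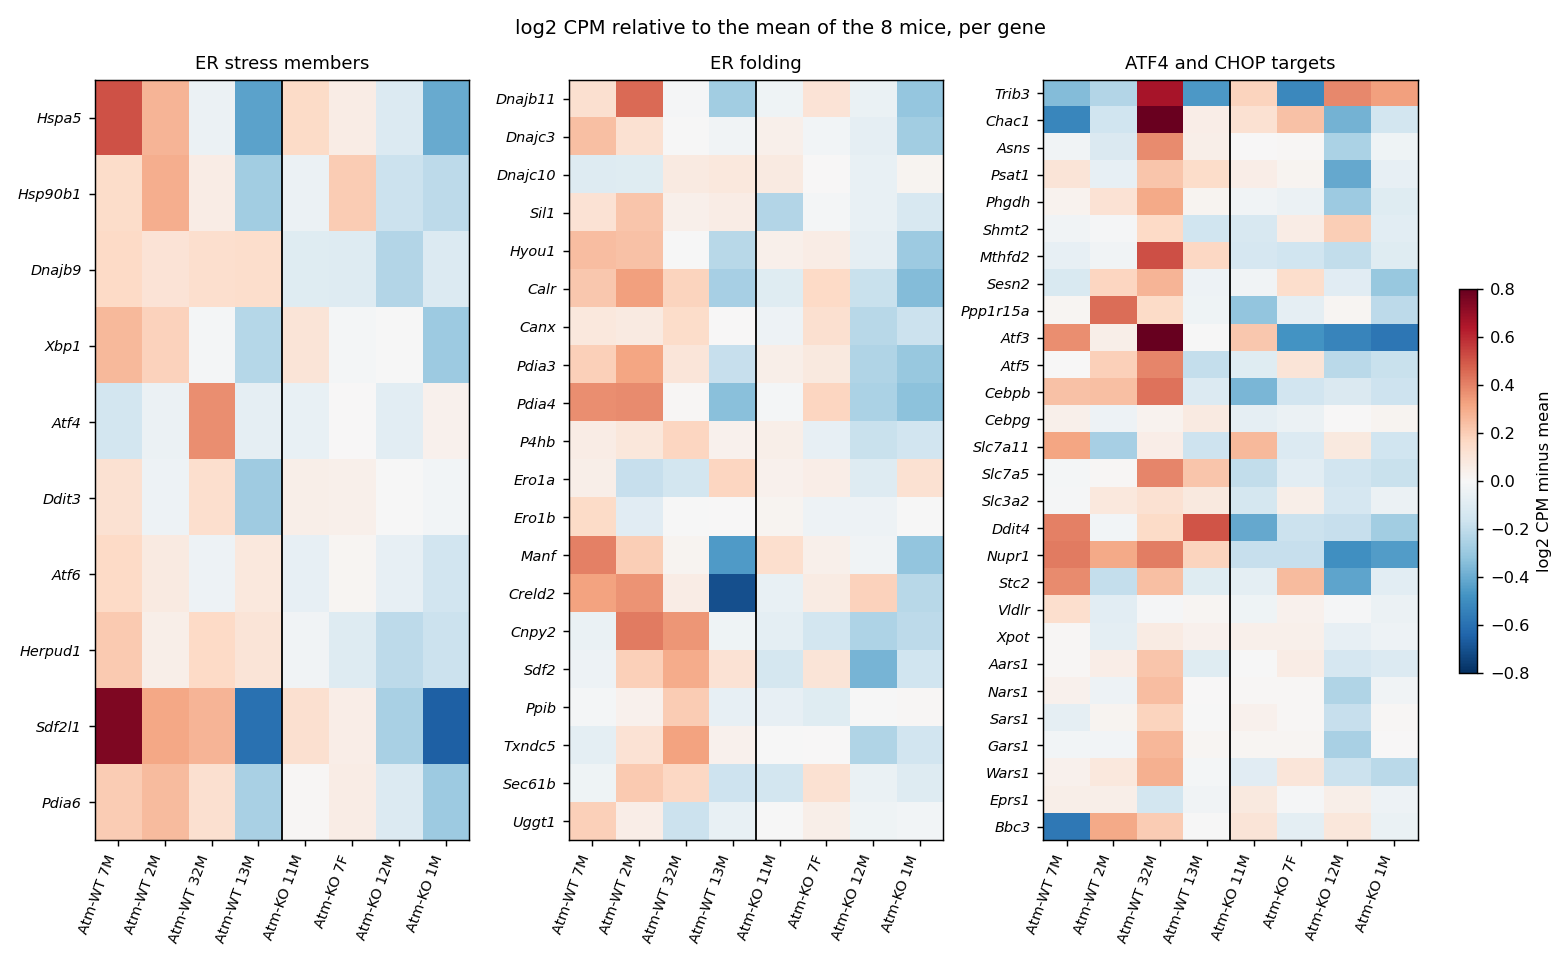
Log2 CPM of each gene relative to its mean over the 8 mice (red higher, blue lower), for the 10 ER stress response genes, 20 further ER folding genes and the 28 ATF4 and CHOP target genes with a mean of at least 1 CPM. Columns are mice, *Atm*-WT left and *Atm*-KO right of the line. The 13M (*Atm*-WT) and 1M (*Atm*-KO) columns are blue in most chaperone rows, and that of *Atm*-WT mouse 32M is red across most ATF4 target rows.

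The order of mice for *Atf4* and its targets was also described after the values were seen, with no test. *Atm*-WT mouse 32M was the highest mouse for *Atf4*, *Ddit3* and 19 of 29 tested ATF4 and CHOP targets (65.5%), beside 21.1% of all genes and 26.1% of genes in the range of CPM of the 10, and the other 10 targets were highest in other mice. *Asns*, asparagine synthetase, was at 116 CPM in that mouse and between 74.7 and 92.1 CPM in the other 7. *Chac1*, a glutathione-degrading enzyme gene, was at 6.80 CPM against 2.74 to 4.63 CPM, and *Mthfd2*, of mitochondrial folate metabolism, at 18.8 against 11.5 to 14.8 CPM. These 3 genes were picked for this order after their values were seen. The same mouse had the lowest sum of nuclear RNAs, 5140 CPM, and the highest sums of oligodendrocyte (4310 CPM) and microglial markers (171 CPM). It also had the highest sum of immediate early genes, 251 CPM against 110 to 196 CPM in the other mice. The part of these lists in this order was not tested. The CARE core searched in *Herpud1* was in 8 of the 23 target promoters in the table, those of *Asns*, *Atf3*, *Chac1*, *Fgf21*, *Nupr1*, *Slc7a11*, *Trib3* and *Vldlr*, beside 3.97% of all promoters.

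Further genes of the response were grouped by role, and 80 of 81 were tested. By edgeR's quasi-likelihood test 0 passed an adjusted p of 0.05, and 16 had an unadjusted p under 0.05, all 16 lower in *Atm*-KO mice. These 16 of 80 stand beside 20.2% of all genes in either direction, 8.48% lower and 11.7% higher. The share with an unadjusted p under 0.05 in either direction was therefore near that of all genes. The share that was lower was above that of all genes, and 0 of the 80 were higher. DESeq2 called 3 of the 80, all lower, beside 7.49% of all genes called and 2.44% called as lower, and limma voom called 0. The median log2 fold change of the 80 genes was −0.12, with 63 estimates below 0.

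Of 20 ER folding genes, 4 were lower at an unadjusted p under 0.05 (*Cnpy2*, *P4hb*, *Sil1* and *Sdf2*) and 0 were higher, beside 8.48% lower and 20.2% in either direction over all genes, and the median was −0.15. *Cnpy2*, an ER-resident saposin-like protein gene, was at 15.2 ± 2.60 CPM in *Atm*-WT against 11.9 ± 0.615 CPM in *Atm*-KO mice (SD, n = 4), without overlap (log2 fold change −0.36, edgeR's adjusted p = 0.152). *P4hb*, which encodes the protein disulfide isomerase PDI, had a log2 fold change of −0.18 (edgeR's adjusted p = 0.167). The highest estimates were those of *Dnajc10*, an ER reductase gene (0.02), and *Ero1a*, which encodes an oxidase that recharges PDI (0.05).

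Of 17 genes of ER-associated degradation, 3 were lower (*Selenos*, *Derl1* and *Vcp*) and 0 higher at an unadjusted p under 0.05, beside the same 8.48% lower and 20.2% in either direction over all genes, with a median of −0.06. *Selenos*, which links the ATPase VCP to the ER membrane, was at 41.3 ± 2.99 and 36.5 ± 0.669 CPM in *Atm*-WT and *Atm*-KO mice (SD, n = 4; log2 fold change −0.18, edgeR's adjusted p = 0.186). *Derl1*, of the channel through which proteins leave the ER, had a log2 fold change of −0.14. *Derl2* (0.15) and *Edem2* (0.14), of the same route, had estimates above 0 whose intervals included 0.

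None of the 14 sensor and eIF2α kinase genes had an unadjusted p under 0.05 by edgeR, and the median was −0.08. *Ern1*, the gene of IRE1, was between 20.1 and 26.2 CPM and *Eif2ak3*, the gene of PERK, between 57.1 and 67.0 CPM over the 8 mice. The estimates with the smallest p were *Mbtps1*, the protease that cuts ATF6 (0.12), and *Eif2ak4*, the amino acid sensor GCN2 (0.11), on the higher side. On the lower side they were *Wfs1*, wolframin of the ER membrane (−0.21), and *Creb3l2*, a membrane-bound transcription factor gene (−0.22).

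Of 29 ATF4 and CHOP targets tested, 9 were lower and 0 higher at an unadjusted p under 0.05, again beside 8.48% lower and 20.2% in either direction over all genes. The median was −0.15, and *Fgf21* had too few counts. *Ddit4*, an mTORC1 inhibitor gene induced by many stresses, was at 26.5, 35.6, 38.2 and 29.9 CPM in *Atm*-WT mice 2M, 7M, 13M and 32M and at 22.2, 23.9, 20.3 and 23.7 CPM in *Atm*-KO mice 1M, 7F, 11M and 12M. The genotypes did not overlap, with a log2 fold change of −0.53 (standard error 0.113, edgeR's adjusted p = 0.0931, DESeq2's 0.00234). *Slc7a5*, the large neutral amino acid transporter LAT1, was at 101 ± 13.6 and 80.9 ± 2.84 CPM (SD, n = 4), also without overlap (log2 fold change −0.32, edgeR's adjusted p = 0.113, DESeq2's 0.0361). *Nupr1*, a stress-induced chromatin protein gene and the third that DESeq2 called, was named after its values were seen, and was at 1.70 CPM or more in *Atm*-WT and at 1.32 CPM or less in *Atm*-KO mice. *Trib3*, a pseudokinase gene induced by CHOP (0.15), and *Eprs1*, a transfer RNA synthetase gene (0.04), had the smallest p among the higher estimates.

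**Figure D4:**
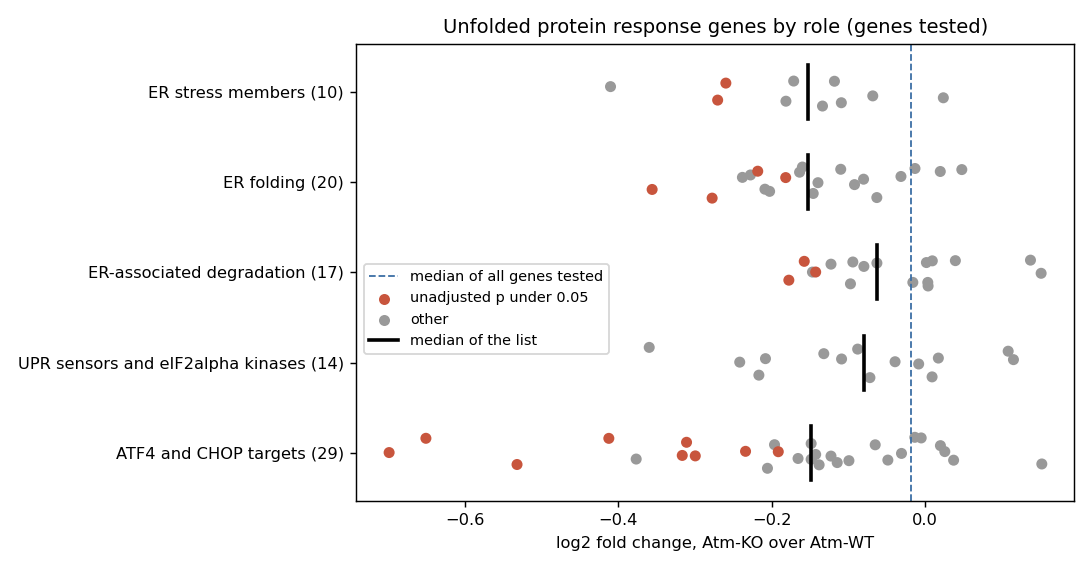
Log2 fold change of *Atm*-KO over *Atm*-WT (horizontal axis) for the 10 genes and 4 further lists of the unfolded protein response, each point a gene, red at an unadjusted p under 0.05 by edgeR, with the median of each list as a black bar and that of all genes tested as a dashed line. The red points all lie below 0, and the medians of the lists run from −0.15 to −0.06.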

How the data were processed

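Cerebellar RNA of 4 *Atm*-WT and 4 *Atm*-KO mice was sequenced by Novogene. The authors used FastQC 0.11.9, STAR (genome GRCm39) and featureCounts on the reads, and deposited raw, unnormalized counts per gene. Strand and pair settings are not given in the sources used here, and 67.3% to 73.3% of the counts from 1 to 50 were even, so a count may be a read or a pair. Identifiers were matched to GENCODE vM39 (98.8% of 56691). Counts were filtered with filterByExpr (22423 genes), TMM-normalized and tested with glmQLFit and glmQLFTest of edgeR 4.0.16 in R 4.3.3, without a covariate, and p was adjusted by the Benjamini-Hochberg method over these genes. Alternatives used DESeq2 1.42.0, limma voom 3.58.1, sva 3.50.0, other scaling, other filters and left-out libraries. Halved counts, the joint removal of 2 libraries and a marker sum without *Pvalb* were chosen after seeing the data. Every library was used, and p-values test the genotype difference against the spread between mice. The procedure was run on simulated counts in which all genes shared a single dispersion, so that run does not show how the tests perform on these data.

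The 10 genes and all lists were chosen with earlier results of these data known. Named are the 10 genes, *Atm*, genes overlapping the 10, and, from each pathway list at a mean of at least 1 CPM, the 2 higher and 2 lower genes with the smallest unadjusted p. Other genes were named after their values were seen, which is not said in each place. Among these are *Slc17a6*, *Derl3*, *Atf6b*, *Calr4*, *Sil1*, *Sdf2* and *Vcp*. *Ern1* and *Eif2ak3* were named as the genes of IRE1 and PERK, and further genes for a match in their promoter.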

Additional observations from a re-analysis of the deposited data

Results flagged for a closer look

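Among 58 sets of 4 values examined, 5 had a value that stood apart from the other 3 of its genotype by Dixon's criterion, where chance gives about 1 in 20 sets, or 2.9 here. *Dnajb9* was at 43.0 CPM in *Atm*-KO mouse 12M and between 46.8 and 47.2 CPM in the rest of that genotype, and that mouse also had the fewest counts, 65967130 against 76598492 to 78431478. *Atf4* was at 96.3 CPM in *Atm*-WT mouse 32M and between 67.4 and 72.2 CPM in the other *Atm*-WT mice. The summed level of the ER-associated degradation list was 1740 CPM in *Atm*-WT mouse 7M and 1670 to 1680 CPM in the others. The summed markers of deep nuclei and brainstem neurons were 394 CPM in *Atm*-KO mouse 12M and 518 to 528 CPM in the other *Atm*-KO mice. In that mouse *Slc17a6* was at 4.32 CPM, against 73.6 to 116 CPM in the other 7 mice. Without *Pvalb*, left out after seeing the data, the sum was 108 CPM in *Atm*-KO mouse 12M and 203 to 268 CPM in the other *Atm*-KO mice. Without *Atm*-KO mouse 12M the log2 fold change of *Dnajb9* was −0.24.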

How the results depend on the processing

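The edgeR count of 0 among the 10 genes at an adjusted p of 0.05 was 2 in DESeq2 (*Dnajb9* and *Herpud1*) and 0 under the other alternatives. The 2 genes with an unadjusted p under 0.05 ranged from 2 to 4 as each mouse was left out. They became 4 without *Atm*-WT mouse 13M, and 4 without that mouse and *Atm*-KO mouse 1M. The genes without overlap of genotypes likewise ranged from 2 to 4, with 4 in both cases. Shares over all genes are not given for these smaller sets of mice, in which non-overlap arises more easily. The counts can therefore not be set beside the shares for all 8 mice. The additions in these 2 cases were *Sdf2l1* and *Pdia6*. Without *Atm*-WT mouse 32M both counts were 3, with *Atf6* added (unadjusted p = 0.0221 by edgeR's quasi-likelihood test). Without *Atm*-KO mouse 7F *Atf6* was also added to the genes without overlap, which were then 3. Of the 80 further genes, 0 were called by edgeR, 3 in DESeq2 and 1 with no filter on low counts (*Ddit4*). The log2 fold change of *Atf4* turned to 0.0652 with 1 surrogate variable, and ranged from −0.131 to 0.0583 as each mouse was left out, the highest without *Atm*-WT mouse 32M. That of *Ddit3* ranged from −0.042 without *Atm*-WT mouse 13M to 0.0727, and was −0.045 without that mouse and *Atm*-KO mouse 1M. The cause was not tested. The other 8 genes kept an estimate below 0 in all 18 alternatives, though 1 surrogate variable brought *Hsp90b1* from −0.12 to −0.016, *Pdia6* from −0.17 to −0.093 and *Sdf2l1* from −0.41 to −0.26, and library size alone gave −0.072 for *Hsp90b1*, −0.060 for *Xbp1* and −0.084 for *Atf6*, and the median of the 10 lay between −0.23 and −0.10. No paired analysis was possible because the genotypes share only the number 7 in their labels. With 4 mice per genotype, the 95% intervals of *Hspa5* and *Sdf2l1* include changes in either direction.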
